A study of Mus musculus with 8 samples.

Results

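The transcriptome of the wild-type heart was described from 4 arrays, those labelled wild type (hearts 1 to 4), out of 8 arrays in the series. The mice were C57BL/6J, 2 months old, and fed a diet with 625 mg/kg doxycycline. The series' design text calls them littermates of the doxycycline-inducible tafazzin shRNA mice on the other 4 arrays, so the wild-type hearts carry the drug's exposure and are not hearts of untreated animals. Each heart came from a mouse of its own number, and total RNA of heart tissue was measured with no separation of chambers or cell types, so every value mixes muscle with vessel, connective tissue, nerve and blood cells. In such bulk tissue, more cells of a type and more RNA per cell cannot be told apart. The knockdown hearts are not described or compared.

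The adult heart beats without rest and is fuelled mainly by oxidation of fatty acids, so its muscle cells are packed with sarcomeres, the contractile units of thick myosin and thin actin filaments, and with mitochondria. Many of its proteins exist as isoforms encoded by separate genes, and the heart uses a set of its own, shared in part with slow or fast skeletal muscle and switched around birth. In the mouse, the alpha myosin heavy chain Myh6 replaces the beta chain Myh7 in the ventricles after birth, and a group of genes including Myl7, Myl4, Sln and Nppa marks the atria.

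A bead array gives a fluorescence intensity for each probe and a detection p-value, which sets that intensity against negative control probes on the same array. A probe was called detected where this p was under 0.05 on all 4 arrays. This held for 7608 of 25697 probes, 29.6%. At the level of genes, 5691 of 16593 genes had at least 1 probe detected on all 4 arrays, 34.3%. A further 2810 genes, 16.9%, were detected on 1 to 3 arrays, and 8092 genes, 48.8%, on none. A missing call belongs to the probe and not to the gene. Of 2394 genes with several probes of which some were detected on all 4 arrays, only 689 had all of their probes detected, and 1249 had a probe that was detected on no array. Transcripts long known from the heart were listed among the undetected by the probes on this array, including Cd36, the fatty acid transporter, Gata4, a cardiac transcription factor, and Actg1, cytoplasmic actin. Ryr2, the calcium release channel of heart muscle, was detected on 1 array. Below, levels are log2 intensities after background correction and quantile normalization over the 4 arrays, and the lowest level of a detected probe was 5.14, 5.14, 5.23 and 5.17 in hearts 1 to 4. Brightness depends on each probe's sequence as well as on its transcript, so ranks are ranks of probe signal and are not amounts of RNA.

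Hearts 1, 3 and 4 each stood apart from the others in some way, given here before the results and in full further on. Heart 1 held signal of the pituitary hormone genes Gh and Prl, which were not detected in the other hearts. Heart 4 held signal of airway secretory cell genes and of some fat genes. Heart 3 was the dimmest array, with 8935 probes detected at p under 0.05 against 9351 to 9601 on the others and an upper quartile signal of 37.1 against 47.7 to 50.1. Hearts 2 and 3 alone, a choice made after the values were seen, had 8055 probes and 6020 genes detected on both arrays. Across the 7608 probes detected on all 4 arrays, which are not independent of each other, the Pearson correlation of levels between any pair of the 4 hearts lay between 0.983 and 0.987.

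The strongest signals belonged to energy production and contraction. The gene of highest mean level was Atp5b, the catalytic beta subunit of mitochondrial ATP synthase, at 15.61, 15.61, 15.61 and 15.48 in hearts 1 to 4. Myl2, the ventricular regulatory myosin light chain, followed at 15.48, 15.42, 15.48 and 15.42. Hba-a1, an alpha chain of haemoglobin, was at 15.38, 15.48, 15.27 and 15.61, so transcripts of blood cells were among the brightest of the tissue. Myl3, the ventricular essential myosin light chain, was at 15.42, 15.38, 15.42 and 15.38, and Tnnc1, the calcium sensor of cardiac and slow muscle, at 15.12, 15.27, 15.38 and 15.27. At this end of the scale the hearts exchange neighbouring ranks of the quantile normalization, which is why the same values recur.

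Places 6 to 30 went on in the same vein. They held the cytochrome oxidase subunits Cox6a2, Cox6b1, Cox7a1, Cox7c and Cox5b, the ATP synthase subunits Atp5g1, Atp5g3, Atp5j2 and Atp5j, the complex I subunit Ndufs6 and the complex III subunit Uqcr10. They also held the sarcoplasmic reticulum calcium pump Atp2a2 (15.04 ± 0.07, SD, n = 4), the small heat shock protein Hspb6, lipoprotein lipase (Lpl), which releases fatty acids from blood lipoproteins (14.84 ± 0.10), cardiac actin Actc1 (14.64 ± 0.19), the Z-disc protein Csrp3, mitochondrial creatine kinase Ckmt2 and the fatty acid-binding protein Fabp3 (14.32 ± 0.18). Etfa, Etfb and Acadm act in mitochondrial fatty acid oxidation, Rplp1 and Rps2 are ribosomal, and Fth1 stores iron. Nppa, which encodes atrial natriuretic peptide, stood at place 12 with 14.76, 14.95, 14.13 and 15.04. Its range of 0.91 was the widest among these 30 genes, with heart 3 below the other hearts. All of these values rest on each gene's brightest probe. With the mean over several detected probes, the range changed by at least the gene's SD in 5 genes and by less in 6. It rose from 0.17 to 0.38 for Atp2a2 and from 0.09 to 0.40 for Etfa.

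Among the 100 genes of highest level, 36 encoded subunits of the respiratory chain or ATP synthase, out of 74 such genes measured. Complex I gave 16 of them, cytochrome oxidase 8, ATP synthase 7 and complex III 5. Cytosolic ribosomal proteins gave 14 of 60 measured, and contractile and cardiac muscle genes 10 of 41. Classes were set by patterns in gene symbols and by lists, so Cyc1, a complex III subunit, stands among the other 40 genes. These also included Mb (myoglobin, 13.54 ± 0.07), Gapdh (13.97 ± 0.14), Eno3 (muscle enolase, 13.65 ± 0.08), Actn2 (sarcomeric alpha-actinin, 13.48 ± 0.10) and Tcap (which caps titin, 13.07 ± 0.22), each as SD over 4 hearts. The 100 brightest probes carried 32.9%, 33.2%, 35.6% and 33.1% of the summed positive signal in hearts 1 to 4. The set of brightest probes was nearly the same from heart to heart, with 87 of each heart's top 100 shared by all 4.

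The sequences before the transcription starts of these bright genes differed in base composition between contractile and housekeeping groups. In vertebrate genomes most CG pairs have been lost through methylation, and promoters of broadly used genes tend to keep them as CpG islands. The 120 bases before the start of 8 bright genes are shown to make this visible, read 5′ to 3′ along the strand of the gene from RefSeq's annotation of GRCm38.p6, with every CG pair in capitals.
Myh6, chr14:54966608-54966727, minus strand: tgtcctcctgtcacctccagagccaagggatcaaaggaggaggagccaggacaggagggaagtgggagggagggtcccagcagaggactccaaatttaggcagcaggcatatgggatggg
Tnnc1, chr14:31208192-31208311, plus strand: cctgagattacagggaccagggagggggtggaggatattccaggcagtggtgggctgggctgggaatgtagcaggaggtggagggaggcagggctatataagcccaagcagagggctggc
Myl3, chr9:110763558-110763677, plus strand: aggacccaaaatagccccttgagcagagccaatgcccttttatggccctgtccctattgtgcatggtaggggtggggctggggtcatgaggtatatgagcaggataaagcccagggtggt
Nppa, chr4:148000602-148000721, plus strand: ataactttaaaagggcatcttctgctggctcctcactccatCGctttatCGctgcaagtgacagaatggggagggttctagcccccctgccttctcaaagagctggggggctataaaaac
Atp5b, chr10:128083187-128083306, plus strand: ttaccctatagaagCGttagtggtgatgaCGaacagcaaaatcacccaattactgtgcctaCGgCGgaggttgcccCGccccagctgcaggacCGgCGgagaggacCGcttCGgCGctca
Cox5b, chr1:36691367-36691486, plus strand: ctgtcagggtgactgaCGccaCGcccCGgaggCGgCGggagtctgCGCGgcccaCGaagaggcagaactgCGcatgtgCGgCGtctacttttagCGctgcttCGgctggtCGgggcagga
Uqcrh, chr4:116075071-116075190, minus strand: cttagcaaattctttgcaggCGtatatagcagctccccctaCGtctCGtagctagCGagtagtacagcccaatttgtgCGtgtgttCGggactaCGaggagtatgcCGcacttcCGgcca
Rps2, chr17:24719943-24720062, plus strand: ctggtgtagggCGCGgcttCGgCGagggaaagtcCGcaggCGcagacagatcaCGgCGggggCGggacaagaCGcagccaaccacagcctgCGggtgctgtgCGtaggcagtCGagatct
The 3 windows of Myh6, Tnnc1 and Myl3 held 0 CG pairs and that of Nppa held 2. Those of Atp5b, Cox5b, Uqcrh and Rps2 held 10, 14, 9 and 13. The rest of the groups ran the same way in windows of 300 bases, 250 before to 50 after each start. The measure was the ratio of CG pairs observed to those expected from the C and G content. Its median was 0.384 over all 32851 RefSeq windows, 0.617 over the windows of measured genes, 0.756 for genes detected on all 4 arrays and 0.421 for genes detected on none. It was 0.865 for detected cytosolic ribosomal proteins, 0.801 for detected respiratory chain and ATP synthase subunits, 0.270 for detected contractile and cardiac muscle genes and 0.108 for olfactory receptors. Of 16593 measured genes, 13336 matched a window.

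5 short motifs were searched in the same windows, and none of them contains another. The letters CCGGAAG, the core that ETS family factors bind, were sought on both strands in the 250 bases before the start. They stood in 6.91% of all windows, 13.5% of the windows of genes detected on all 4 arrays, 6.54% of those detected on none, 25.0% of the ribosomal protein windows (14 of 56), 17.9% of the respiratory chain windows (10 of 56) and 0 of 29 contractile windows. This motif contains a CG pair, so its count moves with the CG content above. The E-box letters CACGTG, also with a CG pair and sought the same way, stood in 6.02% of all windows, 8.68% of detected, 6.15% of undetected, 12.5% of respiratory chain windows (7 of 56), 10.7% of ribosomal protein windows (6 of 56) and 0 of 29 contractile windows. The palindrome that NRF1 binds stood in 0.782% of all windows, 1.52% of detected, 0.877% of undetected, 2 of 56 respiratory chain windows and none of the ribosomal protein or contractile windows. The MEF2 motif was searched in a loose form, with any base allowed at its middle positions. This loose form stood in 3.20% of all windows, 2.87% of detected, 3.14% of undetected and 6.90% of contractile windows (2 of 29). It stood in 1 of 56 respiratory chain windows and 0 of 56 ribosomal protein windows. A stricter MEF2 site was not searched, so these shares do not describe it. The letters TATAA, the core of the TATA box, were sought on the sense strand in the 40 bases before the start. They stood in 4.23% of all windows, 2.41% of detected, 6.56% of undetected, 13.8% of contractile windows (4 of 29), 5.36% of ribosomal protein windows (3 of 56), 0 of 56 respiratory chain windows and 5.88% of the windows of the 100 brightest genes. Counts this small in the gene groups were not tested against chance. Tnnc1 and Nppa carry such letters in the windows printed above. A match describes letters and is no evidence of binding, and windows of neighbouring starts of a gene overlap.

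Whole families separated by their share of detected members, against 34.3% of all measured genes. The machinery of translation and respiration came first. Detected on all 4 arrays were 53 of 60 cytosolic ribosomal proteins, 64 of 76 mitochondrial ribosomal proteins, 14 of 16 ATP synthase subunits, 27 of 33 complex I subunits, 13 of 17 cytochrome oxidase subunits, 6 of 8 complex III subunits, 26 of 36 proteasome subunits and 32 of 47 translation initiation factors. The brightest complex I members were Ndufs6 (14.50 ± 0.05), Ndufb8 (13.81 ± 0.12) and Ndufa3 (13.79 ± 0.06). Of the mitochondrial ribosomal proteins, Mrpl42 (12.57 ± 0.08) was brightest, and of the proteasome subunits Psmb4 (12.29 ± 0.06). Middle shares were found for RAB GTPases, which direct vesicle traffic (30 of 57), and for histones (28 of 68).

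Families of signalling and of other tissues lay below the share of all genes. These were solute carriers (87 of 315), zinc finger Zfp genes (80 of 280), chemokines (10 of 38), collagens (9 of 37), potassium channels (13 of 80), fibroblast growth factors (3 of 22), interleukins (3 of 34), cytochromes P450 (5 of 74), Wnt ligands (1 of 19), keratins (2 of 44) and Hox genes (1 of 38). No vomeronasal receptor of 139, taste receptor of 35 or defensin of 48 was detected on all 4 arrays. Of 1053 olfactory receptors 4 were, Olfr724, Olfr538, Olfr748 and Olfr1113, which are named after their values were seen. Olfr724 was at 6.23, 6.18, 6.20 and 6.20, a range of 0.05. A further 147 olfactory receptors were called on 1 to 3 arrays. By chromosome the detected share ran from 24.5% of genes on X to 41.5% on chromosome 5. None of 15 measured Y-linked genes was detected on all 4 arrays, Uty was called on 1, and Xist was called on none. The labels used here give no sex for these mice.

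**Figure D1:**
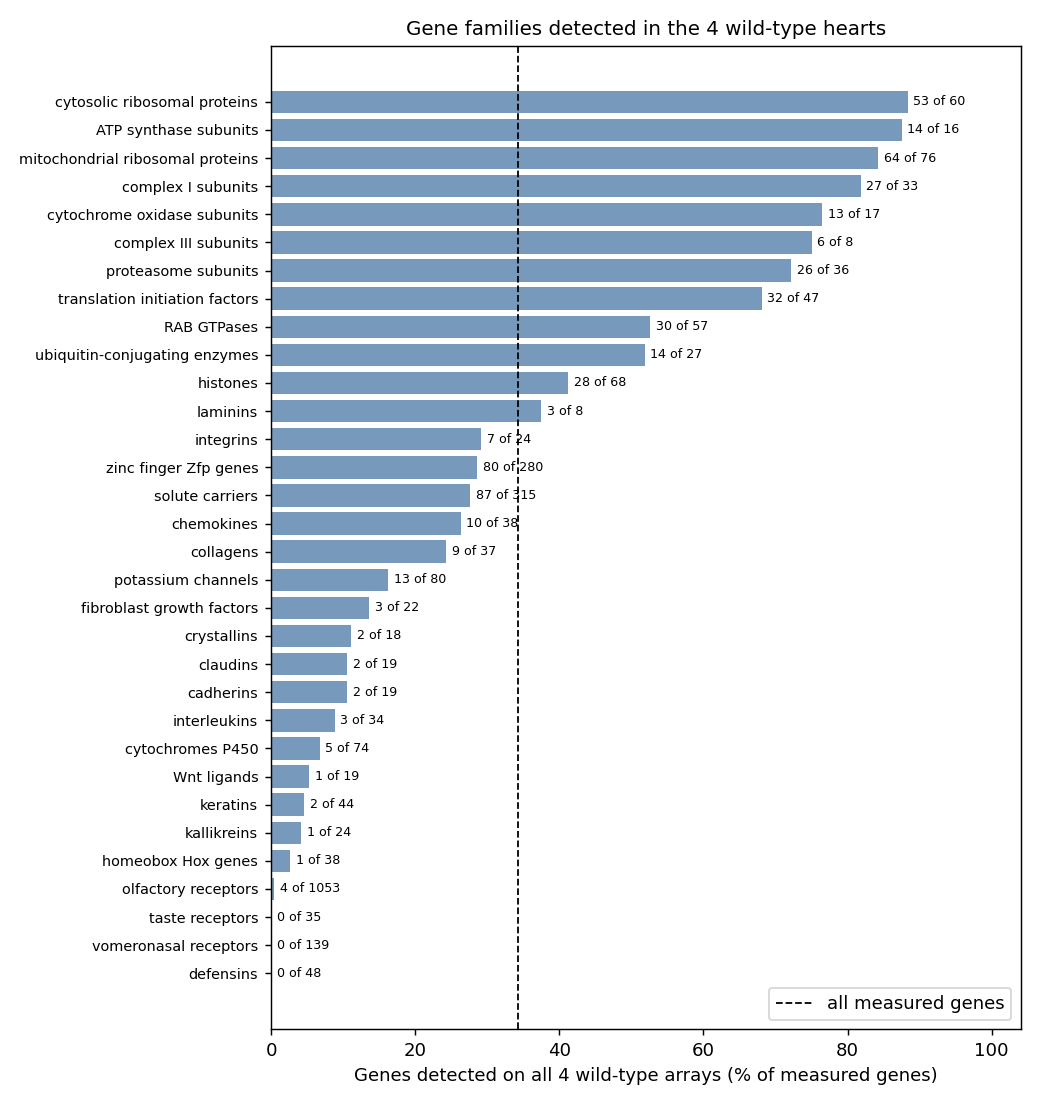
Share of measured genes detected on all 4 wild-type arrays (x axis, %), for 32 gene families (y axis), with counts beside each bar. The dashed line marks 34.3%, the share of all measured genes, and the bars run from 53 of 60 cytosolic ribosomal proteins to 0 of 48 defensins.

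In the single members that led the low families, several are known from heart or vessel. Cxcl12, a chemokine made by stromal and endothelial cells, was at 10.11 ± 0.08. Il15 (9.61 ± 0.21) and Fgf1 (9.41 ± 0.06) led the interleukins and the fibroblast growth factors, and Fgf16, a growth factor known from the mouse heart, was detected at 5.86 ± 0.09. Cdh13 (9.23 ± 0.10) and Cdh5 (8.40 ± 0.18), cadherins of vessels, were the detected cadherins. Kcnk3, a leak potassium channel, stood at 9.68 ± 0.25 and Kcnh2, which carries the rapid delayed rectifier current, at 9.11 ± 0.15. Ccl21a and Ccl21b, chemokines of lymphatic vessels, were at 9.66 ± 0.27 and 8.87 ± 0.15. The Ccl21 genes are near-identical copies and their probes may share transcripts.

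Isoform choice was read from detection calls, starting with the myosin heavy chains of the thick filament. Myh6 was at 14.11, 13.65, 14.11 and 14.15 and detected in all 4 hearts. Myh7, the beta chain, was at 5.72, 5.05, 4.84 and 5.38 and was called on 2 arrays, so its signal sat around the limit of detection. Myh1 and Myh4 of fast skeletal muscle were detected on none, while the smooth muscle chain Myh11 (8.09, 8.07, 7.53 and 8.37) and the nonmuscle chains Myh9 and Myh10 were detected on all 4.

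The troponins, which switch the thin filament on and off with calcium, were mixed, with a cardiac, a slow skeletal and in part a fast skeletal form called. Tnni3, cardiac troponin I, was at 9.05, 8.04, 7.91 and 8.63, with heart 1 highest and a range above 1. Tnni1, the slow skeletal and fetal cardiac form, was detected on none, and Tnni2, the fast form, hovered at 5.02, 5.24, 5.74 and 5.42 with calls on 3 arrays. Tnnc1 was detected everywhere, and Tnnc2, its fast skeletal counterpart, nowhere. Tnnt1, the slow skeletal troponin T, was detected in all hearts at 9.69, 9.69, 9.38 and 9.73, and Tnnt3 in none. The cardiac gene Tnnt2 was not analysed here. Mybpc3, cardiac myosin-binding protein C, was at 12.57 ± 0.20, and the fast skeletal Mybpc2 was detected at 5.89 ± 0.14. Among actins, Actc1 and the smooth muscle Acta2 (13.34 ± 0.29) were bright, the skeletal Acta1 was at 11.13 ± 0.27, and Actg2 was called in heart 4 alone.

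Calcium-handling genes divided by cardiac and skeletal form only in part. Atp2a2, the pump that refills the sarcoplasmic reticulum, was detected in all hearts, Atp2a3 also (7.43 ± 0.07), and the fast skeletal Atp2a1 on 1 array. The cardiac store protein Casq2 was at 10.45 ± 0.08 and its skeletal counterpart Casq1, nearer the limit, at 6.07 ± 0.14. The pump inhibitor phospholamban (Pln) was at 6.40 ± 0.16 by its probe. Of the IP3 receptors, Itpr2, the form known from heart muscle, was detected on all 4 arrays. Of the calcium channels, Cacna1h and Cacna1d were detected on all 4, and Cacna1c, the main L-type channel of heart muscle, on 1.

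Among fuel enzymes, muscle forms were detected beside several forms of other tissues. The muscle creatine kinase Ckm (12.77 ± 0.16) and the mitochondrial Ckmt2 (14.41 ± 0.11) were detected in all hearts, Ckb too (11.55 ± 0.21), and Ckmt1 on 1 array. Eno3 was detected everywhere and the neuronal Eno2 on 2 arrays. Pgam2, the muscle phosphoglycerate mutase, was at 11.63 ± 0.19, and Pgam1 at 5.98, 5.61, 4.77 and 5.70 with 3 calls. Hexokinase Hk2, known from insulin-sensitive tissue, was at 12.26 ± 0.11, Hk1 was called on 3 arrays and Hk3 on none. All phosphofructokinases were detected, with Pfkm at 12.28 ± 0.06, Pfkl at 10.69 ± 0.07 and Pfkp at 8.66 ± 0.24. Of the glycogen phosphorylases, the muscle form Pygm (8.87 ± 0.22) and the brain form Pygb (9.53 ± 0.13) were detected on all 4 arrays and the liver form Pygl on 1. The insulin-regulated glucose transporter Slc2a4 was at 9.30, 9.18, 8.87 and 8.78, the basal transporter Slc2a1 at 6.76 ± 0.20, and Slc2a2, of liver, was called on 1 array.

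For fat as fuel, the muscle carnitine palmitoyltransferase Cpt1b was at 9.29, 9.06, 9.44 and 9.32, and the liver form Cpt1a and brain form Cpt1c were detected on none. Of 7 fatty acid-binding proteins Fabp3 was the one detected, although the probe of Fabp4, a marker of endothelium and fat, was silent like the others. In cytochrome oxidase, where several subunits exist as paired forms, both were seen for Cox6a, with a muscle and a liver form (Cox6a2 15.10 ± 0.13 and Cox6a1 11.91 ± 0.11), for Cox8, likewise (Cox8b 13.17 ± 0.15 and Cox8a 11.62 ± 0.16), and for Cox4, with the ubiquitous Cox4i1 (13.24 ± 0.23) and Cox4i2, known from lung (6.79 ± 0.14). For Cox7a, the muscle form Cox7a1 was bright and Cox7a2 was called on 2 arrays.

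**Figure D2:**
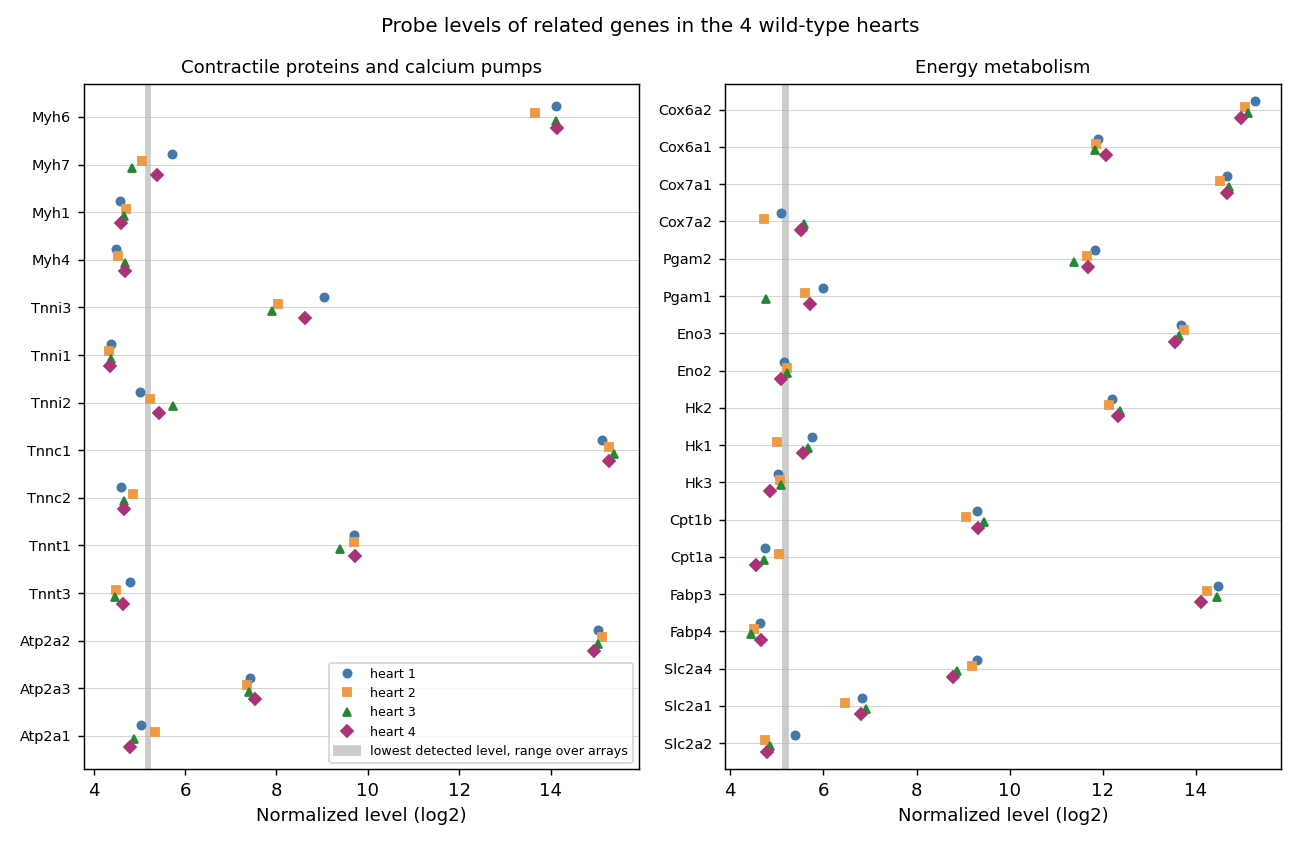
Normalized log2 level (x axis) of related genes (y axis), 1 symbol per wild-type heart, contractile and calcium pump genes at left and energy metabolism at right; the grey band spans 5.14 to 5.23, the lowest detected level of the 4 arrays. Myh6, Tnnc1, Atp2a2, Cox7a1, Cpt1b and Fabp3 lie far right of the band in every heart, while Myh1, Tnni1, Tnnc2, Cpt1a and Fabp4 lie left of it.

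Regulators of the muscle programme were detected in part, with the probes of Gata4 and Mef2d called on no array. Nkx2-5, a cardiac homeobox factor, was detected at 8.71, 8.68, 8.85 and 8.64, Gata6 at 8.32 ± 0.25 and Mef2c at 8.54 ± 0.25. None of the 4 myogenic factors of skeletal muscle (Myod1, Myog, Myf5, Myf6) was called on any array. The estrogen-related receptors Esrra (9.92 ± 0.09) and Esrrb (8.92 ± 0.06), which act on mitochondrial genes, were detected along with their coactivators Ppargc1b (10.19 ± 0.22) and Ppargc1a (8.03 ± 0.32). Pparg was detected in all hearts, and the probes of Ppara, Ppard and Esrrg in none. The gap junction gene Gja1 was at 11.52 ± 0.23, and Gja5, of atria and conduction tissue, at 7.50, 7.91, 7.58 and 7.89. The muscarinic receptor Chrm2, through which the vagus slows the heart, was the one of 5 muscarinic genes detected, at 6.30, 6.39, 7.58 and 7.18.

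The labelled tissue was checked against markers of its cells. Against 34.3% of all genes, detected on all 4 arrays were 10 of 11 measured cardiac muscle markers, 11 of 14 endothelial, 9 of 12 fibroblast, 9 of 11 smooth muscle and pericyte, 8 of 10 atrial and 7 of 10 macrophage markers. Examples are Pecam1 of endothelium (9.22, 9.16, 8.76 and 8.88), Dcn of fibroblasts (11.47, 11.39, 11.22 and 11.51) and C1qb of macrophages (9.70, 9.82, 9.43 and 9.89). No marker of 10 for lymphocytes, 9 for neutrophils or 6 for lung was detected on all 4. Of 11 skeletal muscle markers 2 were, Ckm and Myl1, which the heart is also known to express. Of 9 adipocyte markers 3 were detected on all 4 (Lep, Cidea and Pparg), of 9 liver and plasma protein genes 2 (Ahsg and Trf), of 7 thymus and lymph node genes 2 (Ccl21a and Ccl19), of 7 nerve and glia markers 2 (Dbh and Uchl1), of 8 epicardial markers 2 (Upk3b and Krt8) and of 5 red cell markers 2 (Hba-a1 and Alas2).

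Genes that respond to the state of the animal were counted in the same way, against 34.3% of all genes. Of interferon response and class I genes 16 of 23 were detected, of fasting and fat response genes 12 of 17, of glucocorticoid response genes 9 of 12, of immediate early genes 12 of 24 and of clock genes 6 of 17, the last close to the share of all genes. Pdk4, which restrains glucose oxidation in fasting, was at 10.59, 11.06, 11.34 and 10.86. Jun was at 7.30, 6.99, 7.71 and 7.35, and the probes of Fos, Fosb, Nr4a1 and Atf3 were silent in every heart. Dbp, a clock output gene, was at 7.16, 8.07, 7.18 and 6.89, with heart 2 apart from the others, and Nr1d1 was at 7.81, 8.43, 8.30 and 8.08. The hour at which hearts were taken is not given in the sources used here.

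The 4 hearts differed little for most genes. Over the 7608 detected probes the median SD between hearts was 0.169 on the log2 scale and the median range, highest minus lowest heart, was 0.375, or 1.30-fold. The 90th percentile of the range was 0.712. A range above 1, meaning 2-fold, was found for 159 probes, 2.09%, and for 116 of 5679 genes taken by their brightest probe, 2.04%. The spread shrank with brightness. In 4 equal groups of probes from the lowest to the highest level, the median SD was 0.216, 0.194, 0.155 and 0.129, and 54, 55, 35 and 15 probes had a range above 1. No group comparison exists within 4 hearts of 1 kind, so ranges are given without p-values, and they hold technical as well as animal-to-animal spread. With 1 heart left out in turn, 76, 105, 89 and 110 probes had a range above 1 (without heart 1, 2, 3 and 4), a count that fewer hearts also lower by construction. Hearts 2 and 3 alone gave 47.

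The steadiest genes above the median level included Aldh4a1, a proline-degrading enzyme of mitochondria, with a range of 0.02 at 10.95 ± 0.01, and Cox10, which builds haem for cytochrome oxidase, with 0.02 at 11.32 ± 0.01. Ppp3r1, the regulatory subunit of calcineurin, had a range of 0.04 and Hsd17b4, of peroxisomal fat oxidation, 0.04. Without normalization between arrays, the 13 of these genes that were not also among the brightest had ranges of 0.328 to 0.426, so their steadiness holds for normalized levels. For 5 of the steadiest genes several probes were detected, and the range of the mean over probes was wider in each, though below the median range of all probes. It was 0.35 for Ddx47, 0.32 for Stx5a, 0.245 for Ctps, 0.137 for Etfb and 0.104 for Dap3. By family, the median SD over detected members was 0.10 for 27 complex I subunits, 0.164 for 53 cytosolic ribosomal proteins and 0.297 for 9 collagens. Families with 3 or fewer detected members could lie lower, as did fibroblast growth factors (0.0908, 3 genes) and kallikreins (0.0833, 1 gene).

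**Figure D3:**
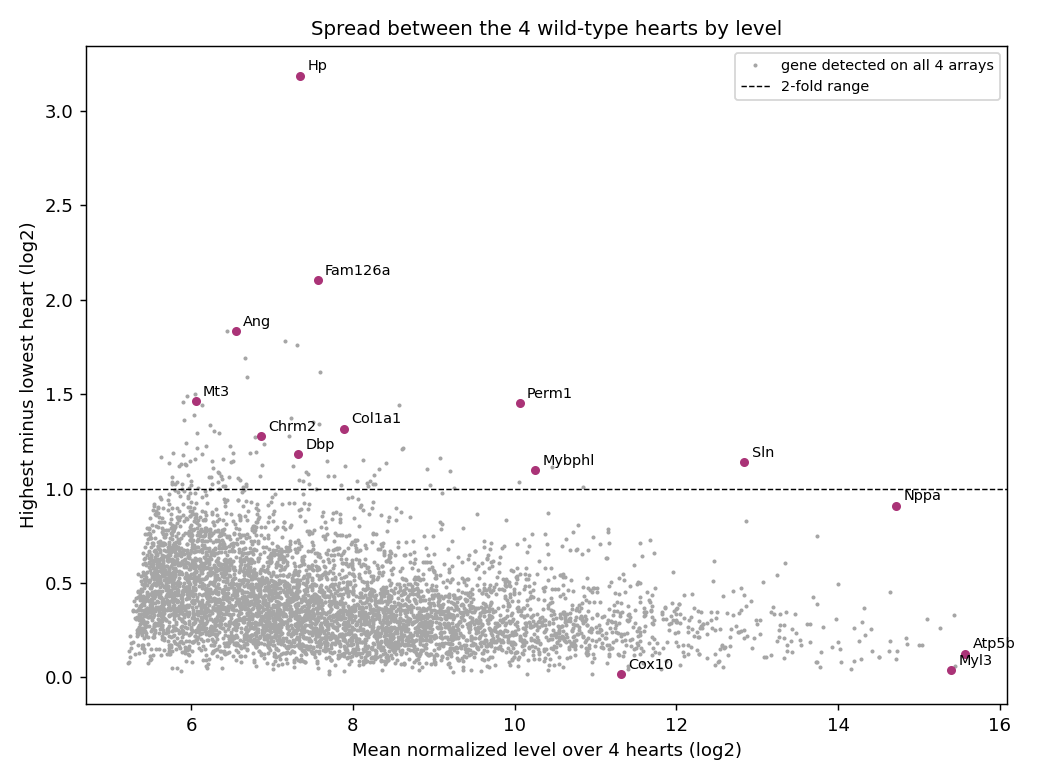
Highest minus lowest heart (y axis, log2) against mean level over the 4 wild-type hearts (x axis, log2), 1 point per gene detected on all 4 arrays, with named genes in purple and the 2-fold range dashed. Hp lies highest at 3.18, Atp5b and Myl3 lie at the bottom right, and 116 of 5679 genes lie above the dashed line.

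The widest range was that of Hp, haptoglobin, which binds free haemoglobin, with 6.23, 7.25, 6.51 and 9.41, a range of 3.18. Its other detected probe had the same order of hearts. Fam126a came next with 8.04, 8.12, 8.09 and 6.01, where heart 4 was low and the others lay close together. Ang, a secreted ribonuclease, was at 6.98, 7.22, 5.38 and 6.65, and Plac9a at 7.89, 8.15, 6.53 and 7.81, both lowest in heart 3. Cluh, an RNA-binding protein for mitochondrial messages, was at 8.27, 6.75, 7.13 and 6.49, with heart 1 highest. Perm1, a muscle regulator of mitochondrial genes, was bright and spread, at 10.76, 10.13, 10.06 and 9.30. Of the 30 genes of widest range, heart 3 was the lowest in 20 and heart 1 or 2 the highest in 12 and 13. Of all 5679 genes, heart 3 was lowest in 23.6%, heart 1 highest in 24.9% and heart 2 highest in 25.5%. Among all 159 probes with a range above 1, heart 3 was lowest in 69, heart 1 highest in 63 and heart 2 highest in 30. The high count of heart 2 thus belongs to the 30 genes and not to all wide-range probes. Heart 3 was also the dimmest array, and the part of brightness in these ranges was not tested. Under the authors' own quantile-normalized values, all 30 kept a range above 1 and the same highest and lowest heart. Those values are another quantile normalization, which keeps the order of hearts almost by construction. Without normalization between arrays, 29 kept a range above 1, 30 the same highest heart and 28 the same lowest heart. In that setting heart 3 was lowest in 74.1% of all genes.

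Collagens varied together across the hearts. All 9 detected collagen genes were lowest in heart 3 and 8 were highest in heart 1, while among all 5679 genes heart 3 was lowest in 23.6% and heart 1 highest in 24.9%. Col1a1, the fibrillar collagen of scar and stroma, was at 8.48, 7.97, 7.17 and 7.96. Col4a1 of basement membranes was at 11.78, 11.44, 11.18 and 11.51, Col4a2 at 11.39, 10.94, 10.38 and 10.67, and Col15a1 at 9.79, 9.28, 8.69 and 9.06. The median deviation from a gene's own mean was 0.30 in heart 1 and -0.40 in heart 3. Of the 9 detected fibroblast markers, which include Col1a1, heart 3 was lowest in 6 and heart 1 highest in 2, so Dcn (11.47, 11.39, 11.22 and 11.51) and Lum (9.53, 9.45, 9.42 and 9.78) did not share the high value of heart 1. Heart 3 was lowest in all 9 under each scaling tried, and heart 1 was highest in 8, or in 9 without normalization between arrays. The other scalings were quantile normalizations too, which keep the order of hearts almost by construction. Without normalization, 74.1% of all genes were lowest in heart 3 and 35.5% highest in heart 1, and 27.9% were both. With normalization that share was 8.89%, against 8 of 9 collagens. Endothelial markers shared the order in part, with 4 of 11 highest in heart 1 and lowest in heart 3, 6 highest in heart 1 and median deviations of 0.11 in heart 1 and -0.07 in heart 3. Pecam1 (9.22, 9.16, 8.76 and 8.88) and Aqp1, a water channel (11.50, 11.44, 10.73 and 10.93), are examples. The part of endothelium in the collagen values was not tested.

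Atrial genes varied together in another pattern, with hearts 2 and 4 above hearts 1 and 3. Sln, sarcolipin, an inhibitor of the calcium pump in atria, was at 12.41, 13.42, 12.28 and 13.26. Mybphl was at 9.89, 10.69, 9.67 and 10.77, Myl7, the atrial regulatory light chain, at 8.85, 9.23, 8.68 and 9.66, and Myl4, the atrial essential light chain, at 13.50, 14.08, 13.33 and 14.04. In these 4 genes the values of hearts 2 and 4 did not overlap those of hearts 1 and 3. Nppa, Gja5 and Dkk3 had the same split, and Tbx5 (5.96, 6.58, 6.05 and 5.60) did not. That split was found in 7 of 8 detected atrial markers and in 842 of all 5679 genes, 14.8%. Without normalization between arrays it was again found in 7 of 8, and in 27.3% of all genes. The other scalings tried were quantile normalizations, which keep the order of hearts almost by construction. Each of the 8 was highest in heart 2 or heart 4, 4 in each, or 7 and 1 without normalization between arrays. Of all genes 25.5% were highest in heart 2 and 22.4% in heart 4, or 34.6% and 26.9% without normalization between arrays. Class II antigen genes, markers of antigen-presenting cells, showed the split in 3 of 5 detected members, and all 5 were highest in heart 2 or heart 4. Ventricular light chains Myl2 and Myl3 differed by at most 0.06 between hearts in normalized level. At their ranks the quantile normalization gives the hearts a few shared values, so this small difference does not compare their ventricular content. The deposited signals of Myl2, not scaled between arrays, were 48147.9, 46425.5, 40474 and 41657.6 in hearts 1 to 4. How much atrium each sample held is not given in the sources used here, and its part in these values was not tested.

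**Figure D4:**
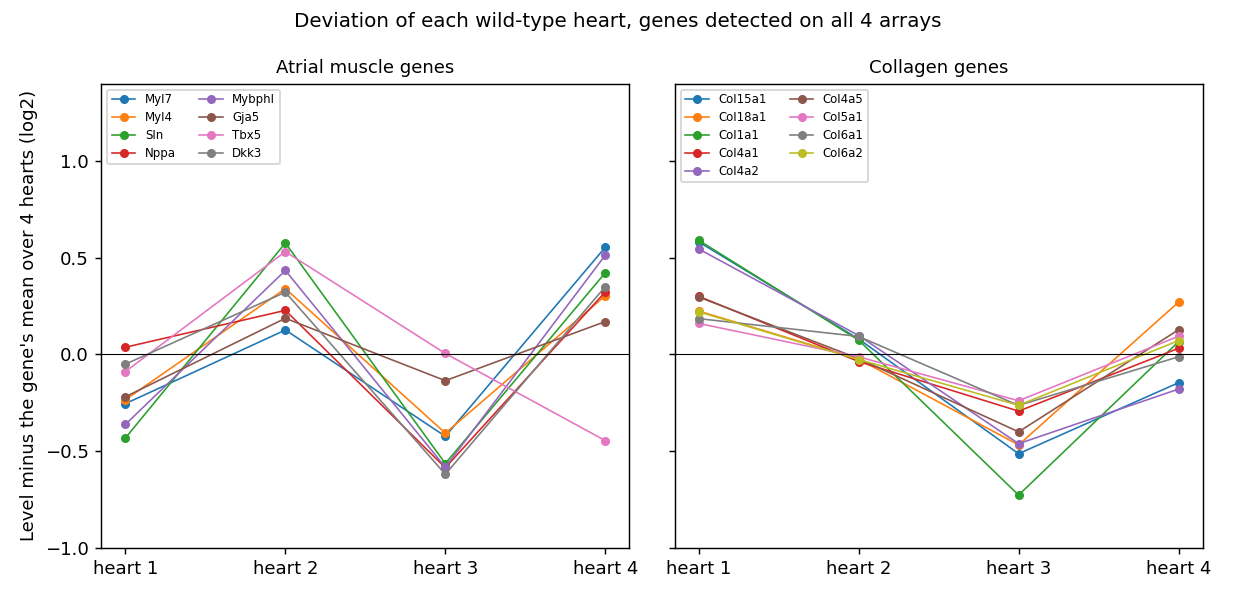
Level of each gene minus its own mean over the 4 wild-type hearts (y axis, log2) for hearts 1 to 4 (x axis), with 8 atrial muscle genes at left and 9 collagen genes at right, 1 line per gene. Atrial genes other than Tbx5 peak in hearts 2 and 4, and all collagen lines have their lowest point in heart 3.

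Ribosomal protein genes showed a smaller pattern. Cytosolic ribosomal proteins were highest in heart 3 in 25 and in heart 4 in 18 of 53 genes, where 27.2% and 22.4% of all genes were. They were lowest in heart 2 in 27, against 25.4% of all genes, with median deviations of -0.07, -0.12, 0.11 and 0.10 in hearts 1 to 4. Without normalization between arrays the sign in heart 3 turned to -0.09, where the median of all genes lay at -0.24 in that heart. Complex I subunits then lay at -0.13 in heart 3 and mitochondrial ribosomal proteins at -0.20. Lying above the median of all genes was thus not particular to cytosolic ribosomal proteins. In that setting heart 3 was highest in 1 and lowest in 27 of the 53, against 2.98% and 74.1% of all genes. With normalization, other families had a like order. Mitochondrial ribosomal proteins were highest in heart 3 in 27 and lowest in heart 2 in 26 of 64 genes. For zinc finger Zfp genes these counts were 31 and 28 of 79. Complex I subunits were lowest in heart 2 in 14 of 27 but highest in heart 3 in only 6.

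Last, 54 probes had 1 heart apart from all others by more than 1 on the log2 scale. Heart 4 gave 28 higher and 1 lower, heart 3 gave 5 higher and 13 lower, heart 1 gave 7 higher and 0 lower, and heart 2 gave none. In heart 1, Gh, growth hormone, was at 8.56 against 4.46, 4.43 and 4.59 in hearts 2 to 4. Its deposited signal was 390 against -13.0, -16.8 and -3.14, at least 10.4-fold higher when the other hearts are set at the lowest detected level. Prl, prolactin, was at 6.85 against 4.51, 4.66 and 4.75. Ptgds, a prostaglandin synthase, was at 6.94 against 5.53, 5.66 and 5.48. Of 12 pituitary genes listed after the values were seen, Gh and Prl were called in heart 1, and the other 10, with Pomc, Tshb, Lhb, Fshb and Cga among them, on no array. The source of this signal was not tested.

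In heart 4, Scgb1a1, the secretoglobin of airway club cells, was at 9.46 against 4.66, 4.80 and 4.73, at least 19.6-fold higher by the same bound, with a deposited signal of 710 against -0.520, 6.96 and 3.32. Cyp2f2, a P450 of the same cells, was at 8.67 against 4.89, 4.99 and 5.33. Wfdc2 was at 8.02 against 4.53, 4.97 and 4.93, Ltf, lactoferrin, at 7.59 against 4.84, 4.55 and 4.75, and Bpifb1 at 6.92 against 5.02, 4.71 and 4.98. Of 14 airway secretory cell genes, Hp alone was detected in all 4 hearts, and its highest value stood in heart 4 as well. Of 10 alveolar genes none was detected on all 4 arrays and 7 on none, including Sftpc, the surfactant gene of alveolar type 2 cells.

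Some fat genes stood out in the same heart. Ucp1, the uncoupling protein of brown fat, was at 5.04, 5.33, 4.46 and 8.22, and Car3, a carbonic anhydrase of fat and muscle, at 5.78, 6.89, 5.16 and 9.10. Adipoq, the fat hormone adiponectin, was at 5.03, 4.95, 5.67 and 6.85, Adig at 5.50, 5.72, 4.92 and 6.83, and Apoc1 at 4.96, 4.91, 4.59 and 6.84. In Car3 heart 2 was second, as it was in Hp and in Ucp1. Plin1, Cidec, Retn and Fabp4, further genes of fat cells, were called on no array, and Cidea was detected in all hearts at 7.92, 8.13, 7.94 and 8.62. Of the 3 adipocyte markers detected on all 4 arrays, Cidea and Pparg were highest in heart 4. The other, Lep, went the opposite way, highest in heart 1 and lowest in heart 4. The lists of airway, alveolar and fat genes were written after these values were seen, and what tissue gave the signal was not tested. Of the pituitary, airway and fat genes given here with values, Hp and Cidea were detected on all 4 arrays, so the counts of detected genes above hold none of the others. Ptgds, given beside Gh and Prl but not among the 12 pituitary genes, was also detected on all 4 arrays and is in those counts.

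**Figure D5:**
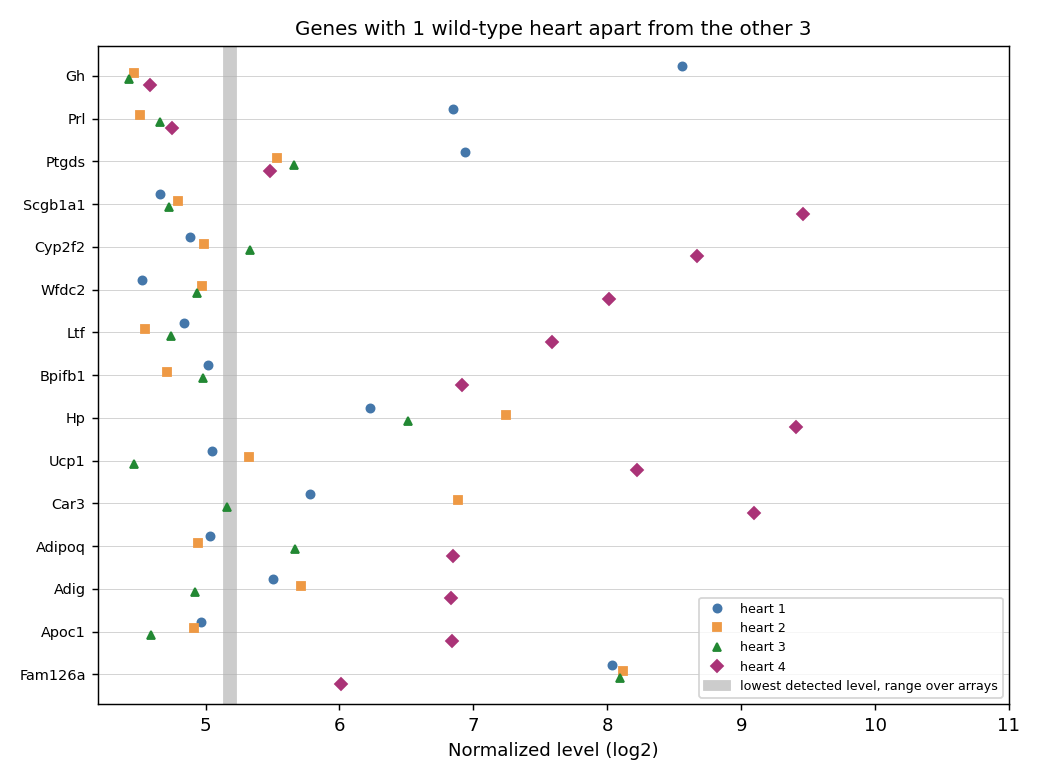
Normalized log2 level (x axis) of 15 genes (y axis) in each wild-type heart, 1 symbol per heart, with the lowest detected levels as a grey band. Heart 1 lies alone at the right for Gh, Prl and Ptgds, heart 4 lies alone at the right from Scgb1a1 to Apoc1, and heart 4 lies alone at the left for Fam126a.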

How the data were processed

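Total RNA of heart was extracted with Trizol and a column with DNase treatment, made into biotinylated RNA with a kit for Illumina arrays and read on mouse bead arrays, as the labels' protocols state. For each probe and array, the deposited file gives a linear intensity that the authors call non-normalized per the file headers, with values below 0 (29.1% to 31.5% of an array's probes in the wild-type hearts), and a detection p-value. The scanner software and background method are not stated in what was used here. Quantile-normalized intensity values, also deposited by the authors, were used as an alternative.

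Intensities of the 4 wild-type arrays were background-corrected, quantile-normalized and log2-transformed with neqc of limma 3.58.1 in R 4.3.3 (offset 16, negative controls inferred from the detection p-value), and summarised in Python 3.11.15. The other 4 arrays entered only an alternative normalization over all 8. Of 25697 probes, 23978 had 1 gene symbol in the platform annotation and 1719 none; 23962 were renamed through Entrez identifiers to RefSeq symbols and 16 kept the platform name. A gene was represented by its probe of highest mean level. Named genes were the 30 of highest level, the 30 of widest range, the 15 of smallest range above the median level, the members of isoform and marker lists and the 3 brightest members of each family. Members and lists were chosen with earlier results of these data known. No group test was made, since there is 1 group. The calculation of spread was tested on simulated data. The number of arrays (4) limits the precision.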

Additional observations from a re-analysis of the deposited data

Results flagged for a closer look

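In 19 of 171 genes named with a call on at least 1 array, 1 heart lay so far from the other 3 that its gap to the nearest of them took up more of the whole range than Dixon's 95% limit for 4 samples allows. Chance gives about 1 such group in 20, and the genes with a single heart apart were named for that, so they are no independent evidence. In heart 4 these were Scgb1a1 at 9.46, Cyp2f2 at 8.67, Wfdc2 at 8.02, Ltf at 7.59, Bpifb1 at 6.92, Apoc1 at 6.84 and Actg2 at 5.92, all above the other hearts, and Fam126a at 6.01, below them. In heart 1 they were Gh at 8.56, Prl at 6.85, Ptgds at 6.94 and Slc2a2 at 5.40, all above the others. In heart 3, Cacna1c stood high at 5.58, its single call, and Tnnt1 low at 9.38. Heart 2 had Myh6 low at 13.65. In Tnnt1 and in 4 further genes the range between hearts was below the median range of all probes. The 4 were Atp5b at 15.48 and Hspb6 at 15.12 in heart 4, Cox6b1 at 14.63 in heart 1 and Hsd17b4 at 10.44 in heart 3. In Atp5b the normalization gave hearts 1 to 3 the same value, so its flag rests on that tie. Its deposited signals were 54665.1, 49977.3, 47792.9 and 46645.3 in hearts 1 to 4. Hspb6, Cox6b1 and Myh6 also hold tied values.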

How the results depend on the processing

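No paired analysis was possible because a single group was described and no result comes from a test. The probe count of 7608 was 6793 at detection p under 0.01, 8568 with calls on at least 3 arrays and 7755 to 8115 with 1 heart left out, where 3 calls then suffice. The median SD of 0.169 was 0.134 with an offset of 50, 0.230 without normalization between arrays, 0.163 at detection p under 0.01, 0.147 with no filter, 0.153 to 0.163 with 1 heart left out and 0.131 for hearts 2 and 3 alone, an alternative added after the values were seen. The 159 probes with a range above 2-fold became 37 with an offset of 50, 373 without normalization, 76 to 110 with 1 heart left out and 47 for hearts 2 and 3 alone. The larger offset compresses low levels by construction, and 18 of the 30 genes of widest range stayed above 2-fold under it. Small member counts moved most. At detection p under 0.01 they were 1 for keratins, 2 for olfactory receptors, 0 for acetyl-CoA carboxylases, 1 for epicardium and 1 for thymus. With at least 3 calls they were 3 for Wnt ligands, 1 for adrenergic receptors, 4 for cadherins, 8 for cytochromes P450, 2 for defensins, 2 for hexokinases, 2 for Hox genes, 2 for kallikreins, 1 for neutrophils, 20 for olfactory receptors, 2 for phosphoglycerate mutases, 5 for skeletal muscle, 2 for troponin I and 1 for vomeronasal receptors. With 1 heart left out they ran from 6 to 11 for olfactory receptors, 2 to 4 for skeletal muscle and for cadherins, 1 to 2 for Wnt ligands, hexokinases, Hox genes, kallikreins, phosphoglycerate mutases and troponin I, and 0 to 1 for adrenergic receptors, defensins, neutrophils and vomeronasal receptors. The cause of these moves was not tested beyond the fewer calls each needs. Signal near background limits all calls at low levels, and a probe that misses its transcript gives a silent gene.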
